A study of Mus musculus with 8 samples.

Results

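The PCGF paralogs are the 6 genes Pcgf1, Pcgf2, Pcgf3, Bmi1 (also called Pcgf4), Pcgf5 and Pcgf6. They were found by symbol among the 24849 genes listed for each sample, and all 6 passed the minimum for testing, a mean FPKM (fragments scaled by transcript length and by the size of the library) over 1 in at least one condition. The samples were MPI-II mESCs, a mouse embryonic stem cell line of strain 129S2/SvPas, either wild type or Pcgf5-/-. RNA with polyA tails was sequenced at day 0, from cells kept on feeders with LIF and the 2i inhibitors CHIR99021 and PD0325901, and at day 6 after the start of neural differentiation in N2B27 medium, so that each of the 4 conditions had 2 samples. The Pcgf5-/- cells were made with TALENs, nucleases that cut a chosen site, aimed at exon 2, together with donor cassettes for puromycin and neomycin resistance, and single colonies were picked. A clone and its genotype therefore cannot be told apart here, and the labels do not say whether the 2 samples of a condition came from separate clones or cultures of 1 clone, so a p-value measures the spread between these samples only.

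PCGF proteins are core subunits of Polycomb repressive complex 1 (PRC1), which marks chromatin by attaching ubiquitin to histone H2A. Each PRC1 complex holds 1 PCGF protein, whose RING domain pairs with that of the ligase RING1A or RING1B. PCGF2 and BMI1 can form canonical PRC1 with CBX and PHC subunits, which binds the mark left by PRC2. PCGF1 forms PRC1.1 with KDM2B and BCOR, PCGF3 and PCGF5 form related complexes with AUTS2 and casein kinase 2, and PCGF6 forms PRC1.6 with MGA, MAX, E2F6 and L3MBTL2. The question addressed here is how the other 5 paralogs stood when Pcgf5 had been disrupted.

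The RING domain is what the 6 proteins share, and it is where the targeted exon of Pcgf5 lies, so its coding bases are shown for each gene. They were read 5′ to 3′ on the coding strand from GENCODE transcripts on build NCBIM37 (mm9), from the first to the last of the 8 cysteine and histidine codons that hold the zinc ions. Capitals mark these 8 codons, and each stretch is 117 bases (39 codons) long.

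Pcgf2: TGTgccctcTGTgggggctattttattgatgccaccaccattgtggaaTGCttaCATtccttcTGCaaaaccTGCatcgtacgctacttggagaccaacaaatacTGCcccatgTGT
Bmi1: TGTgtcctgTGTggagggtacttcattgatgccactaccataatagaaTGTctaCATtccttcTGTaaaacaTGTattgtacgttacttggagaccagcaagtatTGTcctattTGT
Pcgf1: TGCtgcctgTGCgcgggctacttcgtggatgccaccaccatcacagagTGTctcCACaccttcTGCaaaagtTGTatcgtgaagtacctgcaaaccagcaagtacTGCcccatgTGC
Pcgf3: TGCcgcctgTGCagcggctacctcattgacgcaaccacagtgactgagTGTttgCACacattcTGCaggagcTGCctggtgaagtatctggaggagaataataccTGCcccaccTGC
Pcgf5: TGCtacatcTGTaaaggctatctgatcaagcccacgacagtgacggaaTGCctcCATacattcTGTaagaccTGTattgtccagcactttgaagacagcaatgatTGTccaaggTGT
Pcgf6: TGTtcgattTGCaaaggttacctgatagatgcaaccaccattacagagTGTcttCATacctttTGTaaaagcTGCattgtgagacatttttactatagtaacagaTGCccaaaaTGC

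The stretch lay on chromosome 11 from 97554081 to 97554790 for Pcgf2 (minus strand), on chromosome 2 from 18603490 to 18603905 for Bmi1, on chromosome 6 from 83028934 to 83029165 for Pcgf1 and on chromosome 5 from 108902865 to 108904184 for Pcgf3. It lay on chromosome 19 for the other two, from 36486666 to 36509115 for Pcgf5 and from 47123331 to 47123540 for Pcgf6 (minus strand). In each gene an intron divides the stretch, and its coding bases come from 2 exons. The deduced proteins have 342 residues for PCGF2, 324 for BMI1, 259 for PCGF1, 241 for PCGF3, 256 for PCGF5 and 353 for PCGF6. Identity of the whole proteins was taken over aligned residues, with gaps and unaligned ends left out. PCGF2 and BMI1 were the most alike of the 15 pairs (67.8%, 217 of 320 aligned residues), followed by PCGF3 and PCGF5 (48.6%, 108 of 222). Over the RING stretch alone PCGF2 and BMI1 were 89.7% identical, but the RING of PCGF5 was closer to that of PCGF6 (74.4%) than to that of PCGF3 (61.5%).

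Exon 2 of Pcgf5, the exon aimed at, spans chr19:36486446-36486726 on the plus strand and holds the start codon. Its 112 coding bases (chr19:36486615-36486726) carry 4 of the 8 RING codons, again in capitals.

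Pcgf5 exon 2: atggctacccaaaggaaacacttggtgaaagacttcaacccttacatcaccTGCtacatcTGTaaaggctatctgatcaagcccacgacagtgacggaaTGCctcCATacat

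Pcgf5 itself was lower in Pcgf5-/- cells on both days. At day 0 it stood at 5.18 and 3.63 FPKM in the 2 wild-type samples and at 1.28 and 1.84 FPKM in the Pcgf5-/- samples. At day 6 it stood at 9.16 and 5.06 FPKM in the wild type and at 0.669 and 0.457 FPKM in Pcgf5-/-. The genotypes did not overlap on either day, and the Pcgf5-/- mean was 35.5% of the wild-type mean at day 0 and 7.91% of it at day 6. By limma on log2(FPKM + 1) over all 13214 genes tested, the difference was −2.33 at day 6 (standard error 0.28, 95% confidence interval −2.98 to −1.68, adjusted p = 0.00421) and −1.07 at day 0 (standard error 0.28, interval −1.72 to −0.42, adjusted p = 0.105), which missed the threshold of 0.05. For a gene as low as Pcgf5 this scale understates the change in FPKM. FPKM is a value for the whole gene, so it does not tell which exons the remaining signal in Pcgf5-/- cells covers.

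In the Pcgf5-/- samples Pcgf5 was higher at day 0 than at day 6, where the log2 difference between the days was −0.71 (standard error 0.28, adjusted p = 0.0888). The day 0 cells grew on feeders and the files do not separate the RNA of the feeders. Summed over 7 fibroblast genes (Col1a1, Col1a2, Col3a1, Thy1, Postn, Dcn and Lum), the level was 245 and 165 FPKM in the wild type and 155 and 549 FPKM in Pcgf5-/- at day 0, against 10.9 to 32.5 FPKM at day 6. The Pcgf5-/- sample with 549 FPKM of fibroblast genes, replicate 2, was also the one with the higher Pcgf5 (1.84 FPKM). Whether feeder RNA contributed to the Pcgf5 level at day 0 was not tested. Without that sample the genotype difference of Pcgf5 at day 0 was −1.23, and without Pcgf5-/- replicate 1 instead it was −0.91.

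**Figure D1:**
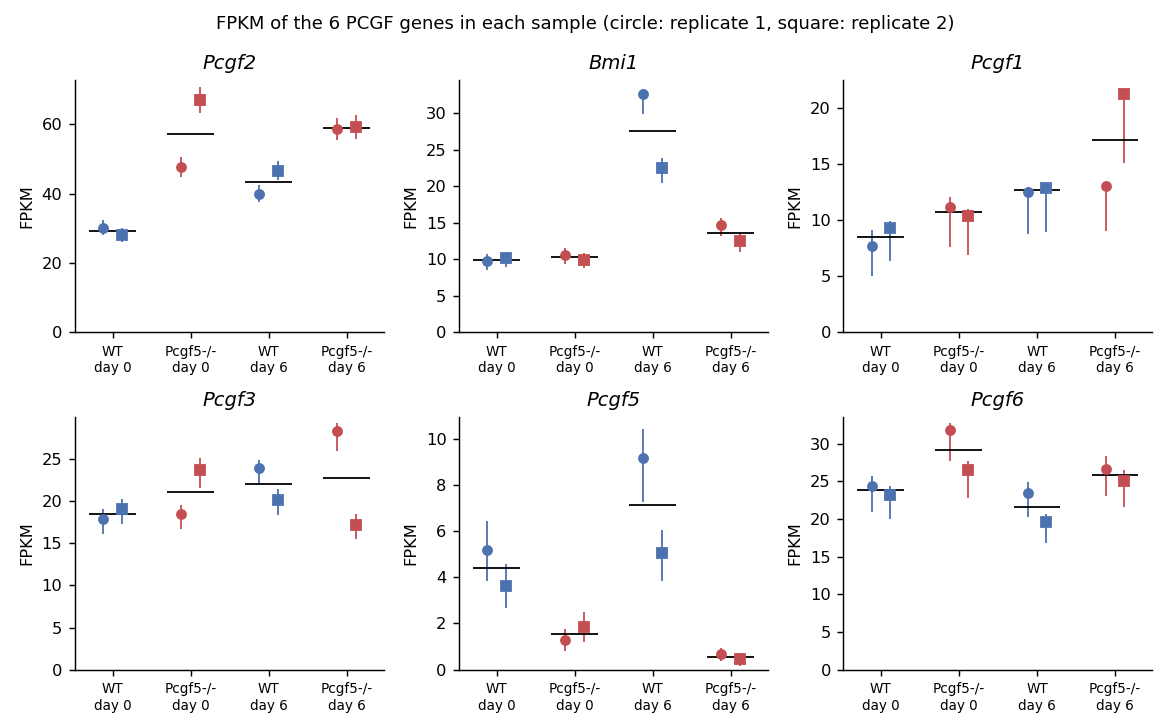
FPKM of each PCGF gene (vertical axis, from 0) in wild-type (blue) and Pcgf5-/- (red) samples at day 0 and day 6. Circles are replicate 1, squares replicate 2, thin bars the deposited Cufflinks 95% interval of each sample and black lines the condition means. Pcgf5 is low in all 4 Pcgf5-/- samples, Pcgf2 is higher in each of them than in either wild-type sample of the same day, and Bmi1 is highest in wild type at day 6.

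At day 0, before differentiation, 0 of the 6 PCGF genes passed the limma threshold between the genotypes, and 2 of the 6, Pcgf2 and Pcgf5, had an unadjusted p under 0.05. Of all genes tested, 0.288% were called higher and 0.0454% lower in Pcgf5-/- at day 0. At day 6 after neural differentiation 2 of the 6 passed, Pcgf5 and Bmi1, both lower, against 9.57% of all genes called higher and 7.05% called lower. Both Pcgf5-/- samples lay above both wild-type samples for Pcgf2, Pcgf1 and Pcgf6 at day 0 and again at day 6. This holds for 34.6% of all genes at day 0 and 33.4% at day 6. Both lay below for Pcgf5 at day 0 and for Pcgf5 and Bmi1 at day 6, as for 13.3% and 28.8% of all genes. The median of all genes was itself 0.11 above 0 at day 0 and 0.02 above 0 at day 6.

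Pcgf2 (chr11:97550137-97561811), which encodes a canonical subunit also known as MEL18, had the largest increase among the paralogs. At day 0 it stood at 30.2 and 28.1 FPKM in the wild type and at 47.5 and 66.9 FPKM in Pcgf5-/-, and the means differed 1.96-fold. At day 6 it stood at 40.0 and 46.6 FPKM in the wild type and at 58.5 and 59.2 FPKM in Pcgf5-/-, a 1.36-fold difference of the means. The genotypes did not overlap on either day, and the Pcgf5-/- samples of day 0 were further apart (SD 13.7, n = 2) than those of day 6 (SD 0.479, n = 2). By limma the difference was 0.93 at day 0 (standard error 0.17, interval 0.54 to 1.32, adjusted p = 0.0622) and 0.44 at day 6 (standard error 0.17, interval 0.05 to 0.83, adjusted p = 0.116). The higher of the Pcgf5-/- samples of day 0 was again replicate 2, the sample rich in fibroblast transcripts. Without it the difference of day 0 was 0.69, and without Pcgf5-/- replicate 1 instead it was 1.17. The part of feeder RNA in this difference was not tested.

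The chromosome of Pcgf2 bears on this result. Across the 1085 tested genes of chromosome 11 the median genotype difference was 0.48 at day 0 and 0.38 at day 6, and 93.4% and 79.4% of these genes lay above 0. Chromosome 6, on which Pcgf1 lies, had medians of 0.41 and 0.37 over 642 genes, with 92.8% and 77.7% above 0. The 18 other chromosomes with at least 20 tested genes had medians from 0.04 to 0.12 at day 0 and from −0.06 to 0.03 on day 6. Both chromosomes were thus higher in Pcgf5-/- cells on both days, and no other chromosome came near them.

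The higher level ran along the whole of both chromosomes. When their genes were divided by position into 4 blocks of about equal number, every block of both had a median difference from 0.35 to 0.51 at day 0 and from 0.29 to 0.43 on day 6. It was also present in each Pcgf5-/- sample. Set against the wild-type mean of the same day, the median of chromosome 11 was 0.47 and 0.50 in the samples of day 0 and 0.35 and 0.39 in those of day 6, and that of chromosome 6 was 0.39 and 0.45, and then 0.36 and 0.38. The cause of this shift was not tested, and in these samples it cannot be told apart from the genotype.

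**Figure D2:**
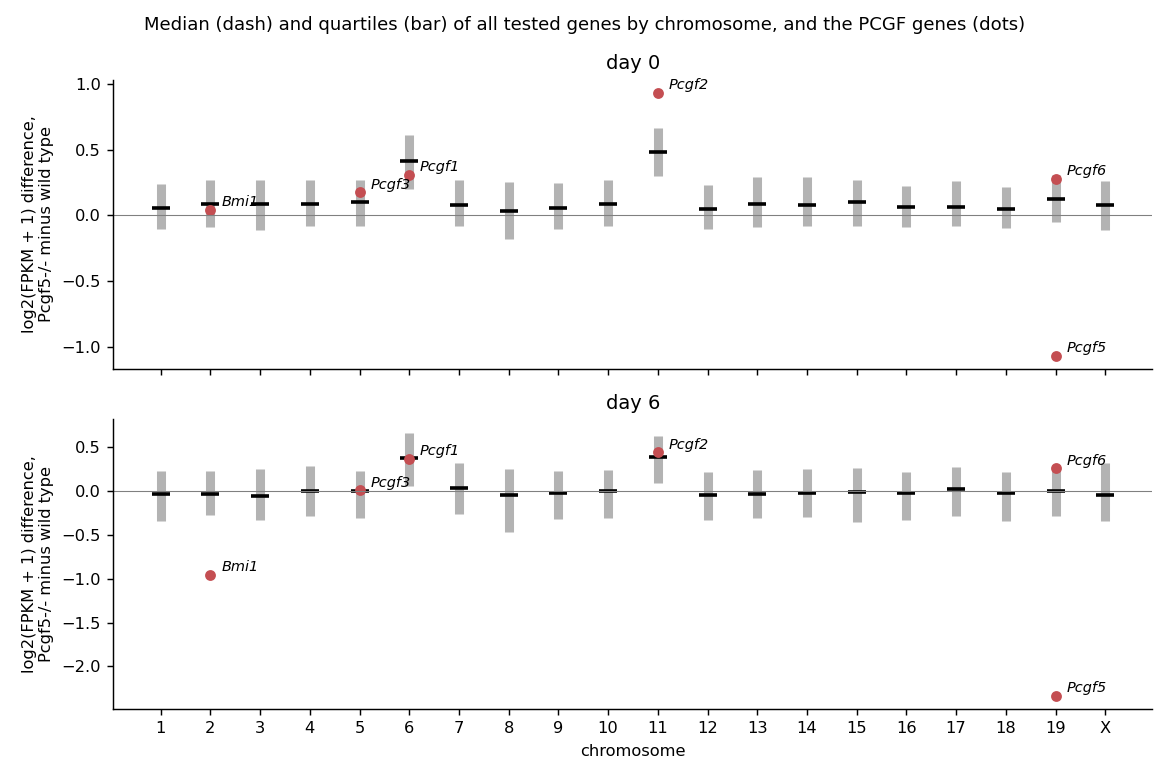
Pcgf5-/- minus wild-type difference of log2(FPKM + 1) by chromosome (horizontal axis) at day 0 (upper) and day 6 (lower), with the median of all tested genes as a dash, their quartiles as a grey bar and the PCGF genes as red dots. Chromosomes 6 and 11 stand above the rest on both days, Pcgf1 lies at or below the median of chromosome 6, and Pcgf2 lies above that of chromosome 11 at day 0 and close to it at day 6.

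Relative to its chromosome, Pcgf2 stood 0.45 above the median at day 0 and 0.06 above it at day 6. At day 0 6.27% of the genes of chromosome 11 had a larger difference than Pcgf2, and at day 6 43.4% had. Of its 10 nearest tested neighbours, 5 on each side, 9 were above 0 on each day, with a median of 0.48 at day 0 and 0.50 at day 6. When each sample was shifted by the median of its chromosome before the fit, the difference of Pcgf2 became 0.42 at day 0 (standard error 0.17, interval 0.02 to 0.81, adjusted p = 0.402) and 0.04 at day 6 (interval −0.36 to 0.44, adjusted p = 0.900). At day 6 the difference of Pcgf2 was thus close to that of its chromosome, while at day 0 a positive difference remained that did not pass the threshold. The gene Cisd3 lies 197 bp from Pcgf2 and the sources used here do not say whether counting used the strand, so reads near their border are uncertain. Its own genotype difference at day 0 was 0.63 (adjusted p = 0.361).

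Bmi1 (chr2:18598645-18608256) encodes the closest relative of PCGF2 and is known for sustaining neural stem cells. It stood at 9.77 and 10.1 FPKM in the wild type and at 10.6 and 9.95 FPKM in Pcgf5-/- at day 0. At day 6 it stood at 32.6 and 22.5 FPKM in the wild type and at 14.6 and 12.4 FPKM in Pcgf5-/-. The genotypes overlapped at day 0 and lay apart at day 6, where the Pcgf5-/- mean was 49.2% of the wild-type mean. The limma difference was 0.04 at day 0 (standard error 0.19, interval −0.40 to 0.48, adjusted p = 0.953) and −0.95 at day 6 (standard error 0.19, interval −1.39 to −0.52, adjusted p = 0.0156).

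The lower Bmi1 at day 6 was the only PCGF difference between the genotypes, other than that of Pcgf5, with an adjusted p under 0.05. The chromosome shift left it at −0.97 (adjusted p = 0.0176), since the median of chromosome 2 was −0.04 at day 6. The call was lost without any 1 of 3 samples, while the sign stayed the same. Without wild-type replicate 1 of day 6, the higher of that pair, it was −0.70 (adjusted p = 0.0744), without Pcgf5-/- replicate 1 it was −1.06 (adjusted p = 0.0632) and without Pcgf5-/- replicate 2 it was −0.85 (adjusted p = 0.0764). Such a refit leaves 1 sample in a condition, which is then assumed to vary like those of the other conditions. Commd3 ends 801 bp from Bmi1 and differed by −0.18 between the genotypes at day 6 (adjusted p = 0.423). The interaction of genotype and day, that is the genotype difference at day 6 minus that at day 0, was −0.99 for Bmi1 (standard error 0.27, adjusted p = 0.0817).

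**Figure D3:**
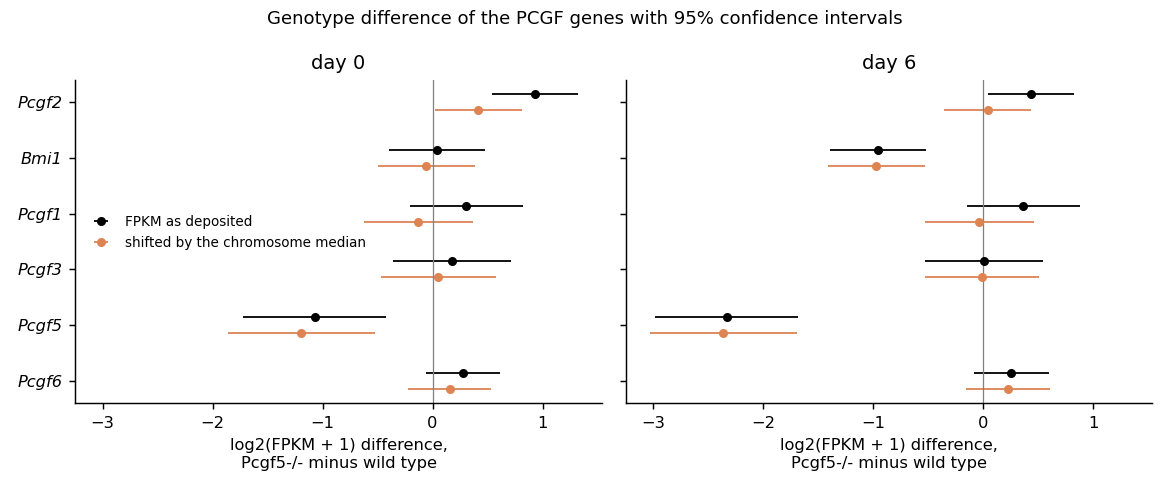
Difference of log2(FPKM + 1), Pcgf5-/- minus wild type (horizontal axis), of each PCGF gene at day 0 (left) and day 6 (right), with 95% confidence intervals from limma. Black marks use FPKM as deposited and orange marks use values shifted by the chromosome median. The shift moves Pcgf2 at day 6 from 0.44 to 0.04 and leaves Bmi1 at −0.97 and Pcgf5 at −2.36.

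Pcgf1 (chr6:83028384-83030849), the subunit of PRC1.1, was higher in Pcgf5-/- samples by a small amount. It stood at 7.74 and 9.35 FPKM in the wild type and at 11.2 and 10.4 FPKM in Pcgf5-/- at day 0. At day 6 it stood at 12.6 and 12.9 FPKM in the wild type and at 13.0 and 21.3 FPKM in Pcgf5-/-. The samples did not overlap on either day, but the lower Pcgf5-/- sample of day 6 was close to wild type and the 2 samples of that condition were far apart. The differences of 0.31 at day 0 (interval −0.20 to 0.82, adjusted p = 0.532) and 0.37 at day 6 (interval −0.14 to 0.88, adjusted p = 0.295) did not pass the limma threshold. That of day 6 was 0.70 (adjusted p = 0.0910) without Pcgf5-/- replicate 1 and 0.03 (adjusted p = 0.939) without Pcgf5-/- replicate 2. In the fit of all samples both were no larger than those of its chromosome. Of the genes of chromosome 6, 64.3% had a larger difference than Pcgf1 at day 0 and 50.0% at day 6, and after the chromosome shift its differences were −0.13 (interval −0.63 to 0.36, adjusted p = 0.857) and −0.03 (interval −0.53 to 0.46, adjusted p = 0.933). All 10 of its nearest tested neighbours were above 0 at day 0 (median 0.44), and 6 of the 10 at day 6 (median 0.13).

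Pcgf3 (chr5:108890351-108932118), the paralog that shares its partners with Pcgf5, differed little between the genotypes. At day 0 it stood at 17.8 and 19.0 FPKM in the wild type and at 18.4 and 23.7 FPKM in Pcgf5-/-. At day 6 the values were 23.9 and 20.1 FPKM in the wild type and 28.2 and 17.2 FPKM in Pcgf5-/-. The genotypes overlapped on both days, and the Pcgf5-/- samples of day 6 spanned the wild-type samples on either side. The limma difference was 0.17 at day 0 (interval −0.36 to 0.71, adjusted p = 0.765) and 0.01 at day 6 (interval −0.53 to 0.54, adjusted p = 0.990), so changes within these limits, in either direction, were not excluded.

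Pcgf6 (chr19:47108109-47125335), the subunit of PRC1.6, shares chromosome 19 with Pcgf5 (chr19:36453557-36530694). It stood at 24.4 and 23.2 FPKM in the wild type and at 31.8 and 26.5 FPKM in Pcgf5-/- at day 0. At day 6 it stood at 23.5 and 19.6 FPKM in the wild type and at 26.7 and 25.01 FPKM in Pcgf5-/-. The Pcgf5-/- samples were above wild type on both days, by 0.28 at day 0 (standard error 0.15, interval −0.06 to 0.62, adjusted p = 0.379) and 0.26 at day 6 (standard error 0.15, interval −0.08 to 0.60, adjusted p = 0.271), and neither difference passed the limma threshold. The median of chromosome 19 was 0.12 at day 0 and close to 0 at day 6, and 29.1% and 25.9% of its genes had a larger difference than Pcgf6.

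Between day 0 and day 6 in wild type, Bmi1 and Pcgf2 rose. Of the 6 genes, 2 were called higher at day 6 than at day 0 and 0 lower, where 34.2% of all genes were called higher and 16.2% lower. Bmi1 rose 2.77-fold in mean FPKM, by 1.36 on the log2(FPKM + 1) scale (standard error 0.19, limma adjusted p = 0.00067). Commd3, which ends 801 bp from Bmi1, rose as well, by 0.92 (adjusted p = 0.00101). Whether reads near their border entered the rise of Bmi1 was not tested. Pcgf2 rose 1.49-fold, by 0.55 (standard error 0.17, adjusted p = 0.0261). The median of all genes was 0.22 higher at day 6, and relative to it Bmi1 stood at 1.14 and Pcgf2 at 0.34. The call of Pcgf2 did not hold with the chromosome shift (0.30, adjusted p = 0.179), nor without wild-type replicate 1 of day 0 (0.60, adjusted p = 0.0655), replicate 2 of day 0 (0.50, adjusted p = 0.107) or replicate 2 of day 6 (0.45, adjusted p = 0.144). The differences of Pcgf1 (0.53, adjusted p = 0.0784), Pcgf5 (0.55, adjusted p = 0.135), Pcgf3 (0.24, adjusted p = 0.410) and Pcgf6 (−0.14, adjusted p = 0.447) did not pass. That of Pcgf5 turned on the samples of day 6, since it was 0.18 (adjusted p = 0.634) without wild-type replicate 1 and 0.93 (adjusted p = 0.0407) without wild-type replicate 2. That of Pcgf1 passed with FPKM rescaled to the same sum in every sample (0.61, adjusted p = 0.0422) and in a fit of the wild-type samples alone (0.53, adjusted p = 0.0491).

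In Pcgf5-/- cells 0 of the 6 genes passed the limma threshold between the days, and 2 of the 6, Pcgf1 and Pcgf5, had an unadjusted p under 0.05. Of all genes 21.9% were called higher and 10.4% lower at day 6. Bmi1 rose 1.32-fold in mean FPKM, a log2 difference of 0.36 (interval −0.07 to 0.80, adjusted p = 0.177). Both its samples of day 6 were above both of day 0, as for 43.3% of all genes. Pcgf2 differed by 0.06 (interval −0.33 to 0.45, adjusted p = 0.815), and its Pcgf5-/- level at day 0 already exceeded its wild-type level at day 6. Pcgf1 differed by 0.59 (adjusted p = 0.0750), and by 0.92 (adjusted p = 0.0206) without Pcgf5-/- replicate 1 of day 6. Pcgf3 differed by 0.07 (adjusted p = 0.832) and Pcgf6 by −0.16 (adjusted p = 0.433). In the test of this interaction 0 of the 6 genes passed, where 1.34% of all genes were called higher and 1.75% lower, and 2 of the 6, Bmi1 and Pcgf5 (−1.26, adjusted p = 0.115), had an unadjusted p under 0.05. That of Pcgf2 was −0.49 (adjusted p = 0.264).

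The markers of cell type moved between the samples of day 6 as well. The summed level of 6 genes of neural progenitors (Sox1, Pax6, Nes, Fabp7, Hes5 and Pou3f2) was 11.5 to 15.6 FPKM at day 0, 302 and 288 FPKM in wild type at day 6 and 99.1 and 114 FPKM in Pcgf5-/- at day 6. That of 6 pluripotency genes (Pou5f1, Nanog, Zfp42, Esrrb, Klf4 and Dppa5a) was 1812 to 1973 FPKM at day 0, 350 and 156 FPKM in wild type at day 6 and 931 and 923 FPKM in Pcgf5-/- at day 6. All 6 progenitor genes were called lower and all 6 pluripotency genes higher in Pcgf5-/- at day 6. That of 6 neuron genes (Tubb3, Dcx, Map2, Elavl3, Nefm and Stmn2) was 149 to 176 FPKM at day 0. At day 6 it was 443 and 319 FPKM in wild type against 164 and 150 FPKM in Pcgf5-/-, with 4 of the 6 called lower. Stmn2 made up 132 and 113 FPKM of this sum in the wild-type samples of day 0. It fell over the days in wild type (−0.88, limma adjusted p = 0.000687), where the other 5 genes were called higher. The sum is therefore not a uniform measure of neurons. In bulk RNA fewer cells of a type and less RNA of a gene per cell cannot be told apart, and the part of the cell mixture in the lower Bmi1 of Pcgf5-/- cells was not tested. Markers of mesendoderm summed to at most 10.2 FPKM in any sample. Those of extraembryonic cells, of which 3 of 6 were under 1 FPKM in all samples, summed to 10.1 to 37.8 FPKM at day 0. For day 6 the wild-type sums were 71.8 and 119 FPKM, against 25.6 and 33.7 for Pcgf5-/-. Krt8 made up most of the sum in every sample, with 54.3 and 117 FPKM in the wild-type samples of day 6. Of those samples, replicate 1 had 10.6 FPKM of Gata4 and 5.70 of Gata6, but replicate 2 only 0.71 and 0.41. The higher wild-type sums are thus mostly Krt8, and the amount of extraembryonic cells was not tested.

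FPKM is scaled by length, so the levels of the paralogs can be set side by side. In wild type at day 0 the order was Pcgf2 (29.1 ± 1.45 FPKM, mean ± SD, n = 2), Pcgf6 (23.8 ± 0.825), Pcgf3 (18.4 ± 0.828), Bmi1 (9.95 ± 0.255), Pcgf1 (8.54 ± 1.14) and Pcgf5 (4.40 ± 1.09), and the sample values of neighbours in this order did not overlap. The deposited Cufflinks intervals did overlap between Pcgf6 and Pcgf3, between Bmi1 and Pcgf1 and between Pcgf1 and Pcgf5. Pcgf5, the gene disrupted, was thus the lowest of the 6 in wild type. In wild type at day 6 Bmi1 (27.5 ± 7.10 FPKM) had moved up to the second place, where it overlapped Pcgf3 (22.0 ± 2.71), and Pcgf3 overlapped Pcgf6 (21.5 ± 2.70). Pcgf2 (43.3 ± 4.66) stayed above them, and Pcgf1 (12.7 ± 0.237) and Pcgf5 (7.11 ± 2.90) below. In Pcgf5-/- at day 0 the order was that of wild type except that Pcgf1 (10.8 ± 0.586) and Bmi1 (10.3 ± 0.433) changed places and overlapped. In Pcgf5-/- at day 6 Pcgf6 (25.8 ± 1.17), Pcgf3 (22.7 ± 7.84), Pcgf1 (17.2 ± 5.85) and Bmi1 (13.5 ± 1.55) each overlapped the next, below Pcgf2 (58.8 ± 0.479) and above Pcgf5 (0.563 ± 0.1504).

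Added together, the 6 genes gave 95.02 and 93.4 FPKM in the wild type and 121 and 139 FPKM in Pcgf5-/- at day 0. At day 6 they gave 142 and 127 FPKM in the wild type and 142 and 136 FPKM in Pcgf5-/-. The summed level was thus higher in both Pcgf5-/- samples than in both wild-type samples at day 0, and the genotypes overlapped at day 6. The other 5 genes alone gave 89.8 FPKM in both wild-type samples and 119.5 and 137 FPKM in Pcgf5-/- at day 0, a 1.43-fold difference of the means. At day 6 they gave 133 and 122 FPKM in the wild type and 141 and 135 FPKM in Pcgf5-/-, a 1.09-fold difference without overlap. That difference of day 6 rested on the scale, since with FPKM rescaled to the same sum in every sample the 5 genes gave a mean of 347 in both genotypes. Pcgf5 made up 4.67% ± 1.102 of the sum in wild type at day 0 and 5.23% ± 1.75 at day 6 (mean ± SD, n = 2), and 1.19% ± 0.184 and 0.404% ± 0.0957 in Pcgf5-/-. Most of the difference at day 0 was Pcgf2, since without it the sum was 65.1 ± 0.304 FPKM in the wild type and 72.8 ± 0.649 FPKM in Pcgf5-/-. These sums describe transcript levels only, carry no test and use values without the chromosome shift. Pcgf2 lies on chromosome 11, whose median genotype difference was 0.48 at day 0 and 0.38 at day 6. Pcgf1 lies on chromosome 6, which was higher as well. The part of these shifts in the sums was not tested.

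Of the canonical pair, again without the chromosome shift, Pcgf2 held a larger and Bmi1 a smaller part of the sum in Pcgf5-/- samples on both days. Pcgf2 held 30.9% ± 1.16 of it in the wild type and 43.7% ± 6.15 in Pcgf5-/- at day 0, and 32.5% ± 6.01 and 42.5% ± 1.69 at day 6. Bmi1 held 10.6% ± 0.399 and 7.95% ± 1.13 at day 0, and 20.4% ± 3.69 in wild type against 9.75% ± 0.807 in Pcgf5-/- at day 6. At day 0 the level of Bmi1 itself overlapped between the genotypes, so its smaller part there goes with the larger sum. The ratio of Pcgf2 to Bmi1 was 3.09 and 2.77 in the wild type and 4.50 and 6.72 in Pcgf5-/- at day 0, and 1.23 and 2.07 in the wild type and 3.999 and 4.76 in Pcgf5-/- at day 6. It fell over the days in wild type, and at both times both Pcgf5-/- samples lay above both wild-type samples. For the other related pair, the sum of Pcgf3 and Pcgf5 was 22.8 ± 0.264 FPKM in the wild type and 22.6 ± 4.16 FPKM in Pcgf5-/- at day 0, and 29.1 ± 5.61 and 23.3 ± 7.99 FPKM at day 6, with overlapping samples on both days.

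**Figure D4:**
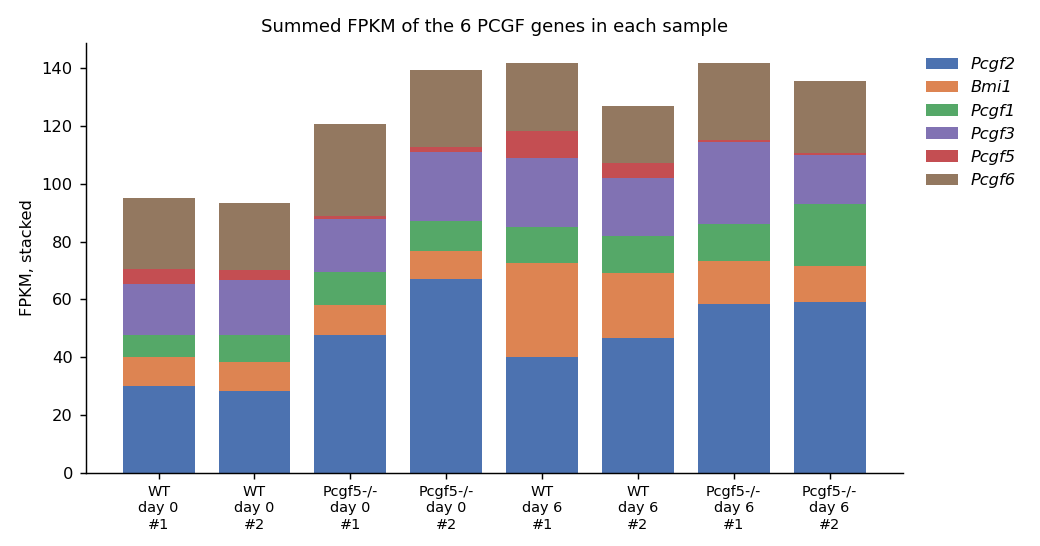
Stacked FPKM of the 6 PCGF genes (vertical axis, from 0) in each of the 8 samples, with #1 and #2 for the replicates. The bars of Pcgf5-/- at day 0 reach 121 and 139 against 95.02 and 93.4 in wild type, mostly through Pcgf2 (dark blue), and at day 6 the orange Bmi1 segment is thinner in Pcgf5-/-.

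For each paralog the 3 genes with the most similar profile were taken, by the root mean square distance between log2(FPKM + 1) profiles centred on their means over the 8 samples. Those of Bmi1 were L1cam (distance 0.06), Actl6b (0.07) and Tgfbr1 (0.09). L1cam and Actl6b are genes of developing neurons and were low, with 1.90 and 1.37 FPKM in wild type at day 6, and Actl6b was listed at 0 in all samples of day 0. Tgfbr1, a receptor of TGF-β, stood at 10.2 FPKM in the wild type and 9.62 FPKM in Pcgf5-/- at day 0 and at 30.1 FPKM in the wild type and 14.6 FPKM in Pcgf5-/- at day 6, close to Bmi1 in level as well. Those of Pcgf2 were Ccdc106 (distance 0.08), Zmiz2 (0.11) and Esrra (0.12), of which Zmiz2 lies on chromosome 11 too and had 24.0, 43.6, 32.9 and 41.7 FPKM in the wild type and Pcgf5-/- at day 0 and then at day 6. Those of Pcgf1 were Fra10ac1, Ube2t and Zfp53 (0.10 each), those of Pcgf3 Zfp142, Ankib1 and Slain2 (0.10 each) and those of Pcgf6 Spsb3 (0.05), Rab3gap1 (0.06) and Zpr1 (0.06). For Pcgf5 the nearest, 2510009E07Rik, Hoxc4 and Grik3, were at a distance of about 0.50. The distance also depends on how much a gene itself varied. The root mean square deviation from its own mean was 0.94 for Pcgf5, against 0.18 (Pcgf6) to 0.57 (Bmi1) for the other paralogs. Distances are therefore not directly comparable between the paralogs. The distances describe these 8 samples and carry no test.

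The partners of the PCGF proteins were taken as 35 genes in 5 groups, all of which passed the FPKM minimum, 8 of them on chromosomes 6 and 11. Between the genotypes 0 of the 35 passed the limma threshold at day 0 (9 at an unadjusted p under 0.05), and at day 6 4 were higher and 4 lower (11.4% each, against 9.57% and 7.05% of all genes). Of those called higher, Phc1 and Rybp lie on chromosome 6, where 25.5% of genes were called higher at day 6, against 25.2% on chromosome 11. The partners were not refitted with the chromosome shift. The median difference was 0.06 at day 0, against 0.11 for all genes, and 0.01 at day 6, against 0.02. Between the days in wild type 12 were higher (34.3%, against 34.2% of all genes) and 5 lower at day 6 (14.3%, against 16.2%). In Pcgf5-/- 8 were higher (22.9%, against 21.9%) and 1 was lower (2.86%, against 10.4%). The shares called higher were thus close to those of all genes. For the interaction of genotype and day 0 were higher and 3 lower (Yaf2, Phc2 and E2f6), that is 8.57% against 1.75% of all genes.

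The ligase genes Ring1 and Rnf2 were grouped with Rybp and Yaf2. Rnf2, which encodes the main ligase RING1B of mESCs, stood at 40.0 to 56.1 FPKM in all 8 samples. Its differences between genotypes and days did not pass. Yaf2, the relative of Rybp, went from 2.94 and 3.39 FPKM in wild type to 6.60 and 9.39 FPKM in Pcgf5-/- at day 0 (difference 1.09, adjusted p = 0.0614), and from 18.5 and 19.9 to 12.4 and 12.0 FPKM at day 6 (−0.61, adjusted p = 0.0594). Its genotype effect differed between the days by −1.71 (adjusted p = 0.0288). Rybp, which binds RING1B in the complexes without CBX, stood at 37.4 and 22.8 FPKM in the wild type and 73.2 and 44.9 FPKM in Pcgf5-/- at day 6, and was higher by 0.95 (adjusted p = 0.0457), after a difference of 0.53 at day 0 (adjusted p = 0.356). Rybp lies on chromosome 6, whose median was 0.37. At day 6 1 of these 4 genes was higher and 0 were lower, where 9.57% of all genes were called higher and 7.05% lower.

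Of the 10 CBX, PHC and SCM genes of canonical PRC1, 2 were higher and 1 lower in Pcgf5-/- at day 6, where 9.57% of all genes were higher and 7.05% lower. Scml2 on chromosome X stood at 0.626 and 0.563 FPKM in the wild type and 8.43 and 3.97 FPKM in Pcgf5-/- at day 0, and at 1.23 and 0.893 FPKM against 8.93 and 5.47 FPKM at day 6. All Pcgf5-/- samples were above all wild-type samples, by 2.101 at day 0 (adjusted p = 0.0501) and 1.96 at day 6 (adjusted p = 0.00944). Phc1, a polyhomeotic subunit abundant in mESCs and located on chromosome 6, stood at 64.6 and 40.9 FPKM in the wild type and 175 and 125 FPKM in Pcgf5-/- at day 6, a difference of 1.51 (adjusted p = 0.00803). Phc2, its relative, rose over the days in wild type by 2.88 (adjusted p = 1.07e-05) and stood at 58.3 and 65.5 FPKM in the wild type and 34.6 and 38.1 FPKM in Pcgf5-/- at day 6, a difference of −0.75 (adjusted p = 0.0189). Cbx2, on chromosome 11, differed by 0.61 at day 0 (adjusted p = 0.198). Phc1 and Phc2 thus differed between the genotypes in opposite directions at day 6.

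Of the 5 partners of PCGF1 in PRC1.1, 0 passed between the genotypes on either day. The shares of all genes called higher and lower were 0.288% and 0.0454% at day 0 and 9.57% and 7.05% at day 6. The largest differences of these 5 partners at day 0 were those of Bcor (−0.42, adjusted p = 0.483) and Usp7 (−0.30, adjusted p = 0.365). At day 6 they were those of Bcorl1 (−0.30, adjusted p = 0.506) and Kdm2b (−0.29, adjusted p = 0.180). Of the 7 partners of PCGF3 and PCGF5, 1 passed at day 6, as lower, against the same 7.05% of all genes. Auts2, the neuronal subunit of these complexes, stood at 6.97 and 7.39 FPKM in the wild type and 6.18 and 7.14 FPKM in Pcgf5-/- at day 0, and at 24.0 and 23.7 FPKM against 14.8 and 11.5 FPKM at day 6. It rose in wild type by 1.604 (adjusted p = 0.000161) and in Pcgf5-/- by 0.88 (adjusted p = 0.00598), and its genotype difference at day 6 was −0.82 (adjusted p = 0.0167). Its interaction of genotype and day was −0.72 (adjusted p = 0.122). Dcaf7, on chromosome 11, had the largest difference of this group at day 0 (0.59, adjusted p = 0.0751), followed by Csnk2a2, a catalytic subunit of casein kinase 2 (0.31, adjusted p = 0.362). Fbrs came after Auts2 at day 6 (−0.21, adjusted p = 0.406).

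Of the 9 partners of PCGF6 in PRC1.6, 1 was higher and 2 were lower in Pcgf5-/- at day 6, against the same 9.57% and 7.05% of all genes. Tfdp1, the dimer partner of E2F factors, stood at 110 and 126 FPKM in the wild type and 65.4 and 64.3 FPKM in Pcgf5-/-, a difference of −0.85 (adjusted p = 0.00991). L3mbtl2, a reader of methylated histones, stood at 23.8 and 21.5 FPKM against 35.5 and 30.8 FPKM, a difference of 0.53 (adjusted p = 0.0443). Hdac2, a histone deacetylase found in several complexes, differed by −0.47 (adjusted p = 0.0425). E2f6 rose over the days in wild type, from 7.19 and 7.18 to 34.6 and 33.7 FPKM, and in Pcgf5-/- from 12.3 and 12.2 to 30.4 and 28.4 FPKM (adjusted p = 1.37e-05 and 0.000525). At day 0 E2f6 differed by 0.70 (adjusted p = 0.0622) and Tfdp1 by −0.49 (adjusted p = 0.132) between the genotypes.

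Between the days the largest differences of the partners in wild type were those of Phc2, Yaf2, Ring1, Cbx2 and E2f6, all higher at day 6. Ring1, which encodes the second ligase RING1A, rose from 3.28 and 3.62 to 15.9 and 22.2 FPKM, by 2.15 (adjusted p = 0.000209), and in Pcgf5-/- by 1.34 (adjusted p = 0.00449). Cbx2, a chromodomain subunit, rose from 4.62 and 6.17 to 26.9 and 26.5 FPKM, by 2.12 (adjusted p = 0.000146), and in Pcgf5-/- by 1.12 (adjusted p = 0.00656). Yaf2 rose by 2.28 in wild type (adjusted p = 5.25e-05) and by 0.57 in Pcgf5-/- (adjusted p = 0.0491). Wdr5, a subunit shared with histone methyltransferase complexes, fell from 127 and 111 to 49.6 and 44.7 FPKM in wild type, a difference of −1.32 (adjusted p = 9.7e-05), and changed by −0.81 in Pcgf5-/- (adjusted p = 0.00256). Of the PRC1.1 partners, Usp7 fell (−0.92, adjusted p = 0.00177) and Bcorl1 rose (1.02, adjusted p = 0.0165) in wild type, and Bcor rose in Pcgf5-/- (1.20, adjusted p = 0.0124), where Bcorl1 differed by 0.84 (adjusted p = 0.0516). Of the partners of PCGF3 and PCGF5, Dcaf7 rose by 0.81 in wild type (adjusted p = 0.00116), and Fbrsl1 differed by −0.46 in Pcgf5-/- (adjusted p = 0.0764).

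**Figure D5:**
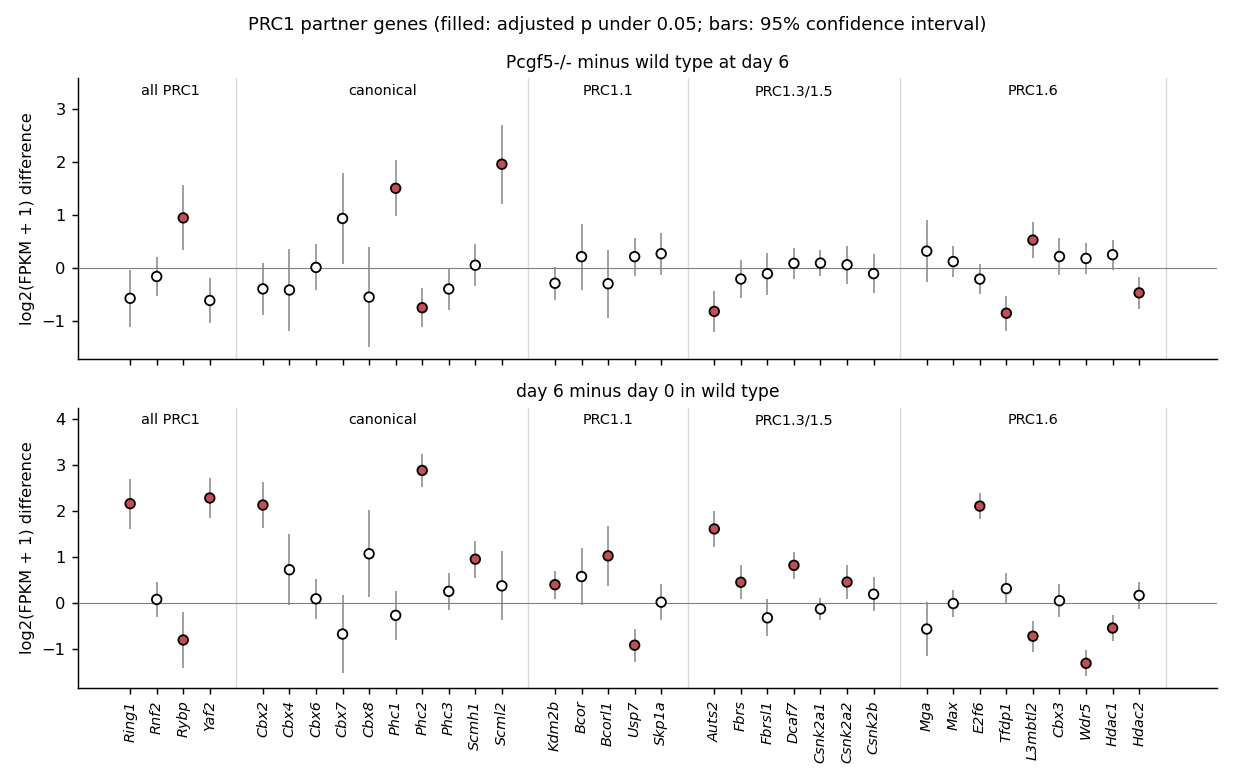
Difference of log2(FPKM + 1) of each PRC1 partner gene (horizontal axis, grouped by complex) between Pcgf5-/- and wild type at day 6 (upper) and between day 6 and day 0 in wild type (lower), with 95% confidence intervals. Filled points have a limma adjusted p under 0.05. At day 6 Scml2, Phc1, Rybp and L3mbtl2 are filled above 0 and Phc2, Auts2, Tfdp1 and Hdac2 below, with none among the PRC1.1 partners.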

How the data were processed

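RNA-seq with polyA selection was made for 8 samples, 2 of wild type and 2 of Pcgf5-/- mESCs at day 0 and at day 6, and groups and replicate numbers came from the sample titles. Per the study's methods and the submitters' processing notes, the authors trimmed the reads, removed identical duplicates, aligned to mm9 with TopHat2 2.0.4 and computed gene values with Cufflinks 2.1.1. The deposited unit is FPKM, with a lower and an upper limit per gene and sample. The annotation used is not given in the sources used here. FPKM keeps no read totals, so the depth behind a value is unknown here, and removal of identical reads can lower abundant genes.

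Values were analysed as log2(FPKM + 1) with limma 3.58.1 in R 4.3.3, over the 13214 genes with a mean over 1 in at least one condition, with a mean for each of the 4 conditions, a variance trend, no replicate block and Benjamini-Hochberg adjustment over all genes tested (threshold 0.05). The test was checked, for the comparison of genotypes at day 0 only, on simulated data with independent, normally distributed noise. The fit assumes such noise, so the check does not cover dependence between the samples. The partner genes named were the 2 largest differences of a group in each comparison of genotypes or of days. Rnf2, Phc2 and Hdac2 at day 6, and the genes in the closing section, were added after their values were seen. RING sequences came from GENCODE transcripts on NCBIM37. The members, gene lists and tests were chosen with earlier results of these data known. Alternatives were other pseudocounts, minimums and scalings, a shift by chromosome median, replicate blocks, smaller fits and leaving out each sample. Files were read and described in Python 3.11.15 (pandas 2.3.3, numpy 2.4.6).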

Additional observations from a re-analysis of the deposited data

Results flagged for a closer look

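No PCGF gene was singled out, but 9 partner genes were, since the genotype effect or the effect of the days differed. The share of all genes that meet the same rule was not computed, so this count shows nothing particular to the partners. The test was limma's difference of the genotype effect between day 6 and day 0, equally the difference of the day effect between the genotypes. It passed the threshold for Yaf2 (−1.71, adjusted p = 0.0288), Phc2 (−1.15, adjusted p = 0.0410) and E2f6 (−0.91, adjusted p = 0.0426). In all 3 both Pcgf5-/- samples were above both wild-type samples at day 0 and below them at day 6. The same change of side was seen, without passing the test, for Ring1 (−0.81, adjusted p = 0.197) and Cbx2 (−1.004, adjusted p = 0.107), and in the other direction for Wdr5 (0.51, adjusted p = 0.140) and Hdac1 (0.46, adjusted p = 0.171). For Phc3 (−0.42, adjusted p = 0.345) and Tfdp1 (−0.36, adjusted p = 0.324) the samples of day 6 lay on opposite sides of those of day 0 in the genotypes, and the test did not pass. The causes were not tested.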

How the results depend on the processing

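Over the 30 differences of the PCGF genes, 468 alternative values were computed. Of these 423 kept their direction and side of the threshold, 9 lost a call, 9 gained one, 27 changed the sign of a value that was not called and 0 reversed a called one. Pcgf5 at day 6 passed in all 15 alternatives (−3.60 to −1.96, adjusted p 0.00307 to 0.0398), and so did the rise of Bmi1 in wild type (1.09 to 1.62, adjusted p 0.00056 to 0.00938). Bmi1 at day 6 ranged from −1.21 to −0.70 and also lost its call with no filter on low values (adjusted p = 0.0692). Pcgf2 at day 0 ranged from 0.42 to 1.17 (adjusted p 0.0504 to 0.402).

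The number of PCGF genes called at day 6, 2, was 1 with no filter and 1 to 2 when samples were left out in turn. In wild type between the days it was 2, against 1 with no filter, 1 with the chromosome shift, 3 with rescaled FPKM or with only the compared conditions (Pcgf1 added) and 1 to 2 without single samples. In Pcgf5-/- between the days it was 0, against 1 with a pseudocount of 0.1 or 0.01, with quantile normalization or with only the compared conditions (in each case Pcgf5), and 0 to 1 without single samples. With FPKM rescaled to the same sum of 1000000 in every sample, the summed level of the 6 genes was 248 in wild type and 324 in Pcgf5-/- at day 0 and 366 and 348 at day 6, so the order of the means turned at day 6. Without Pcgf5 it was 237 and 320.3 at day 0 and 347 and 347 at day 6. The cause was not tested.

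The replicate numbers are not stated to pair samples. Deviations of same-numbered samples correlated at 0.10 at day 0 and 0.39 at day 6 between the genotypes, and at −0.08 to −0.02 across the days. A replicate block changed none of the PCGF calls. A replicate block for each day gave 1 PCGF gene for the difference of the genotype effect (Bmi1, adjusted p = 0.0350), against 0, and changed no other PCGF call.

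Counts over all genes were unsteady. At day 0 the 38 higher and 6 lower genes became 0 and 3 with quantile normalization, 0 and 2 with rescaling, with the chromosome shift or with no variance trend, 56 and 5 with a pseudocount of 0.01, 88 and 14 with a minimum of 5, 0 and 1 with a replicate block, 237 and 45 with a block for each day and 0 and 0 in a fit of day 0 alone. At day 6 the 1265 higher and 932 lower genes became 907 and 1096 with rescaling, 851 and 973 with the chromosome shift, 441 and 458 with no filter, and 297 in all without Pcgf5-/- replicate 1. In wild type between the days quantile normalization gave 3181 higher and 3020 lower genes and the chromosome shift 3331 and 3258, against 4522 and 2146, and in Pcgf5-/- they gave 1961 and 1734 and 2148 and 1932, against 2898 and 1373. For the difference of the genotype effect, on which the calls of Yaf2, Phc2 and E2f6 rest, the 408 genes called fell to 4 without wild-type replicate 2 of day 0 or Pcgf5-/- replicate 1 of day 6, and rose to 1167 with a block for each day.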
